A study of Mus musculus with 150 samples.

Results

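Lungs of transgenic (TG) mice and knockout (KO) mice that had both inhaled styrene were compared by gene expression array at the 26- and 52-week labels. The rule took every array whose title gives a dose of 120 ppm, 26 or 52 weeks and the TG or KO line, which gave 19 of the 150 mice in the series. They were 5 TG mice at 26 weeks, 5 TG mice at 52 weeks, 4 KO mice at 26 weeks and 5 KO mice at 52 weeks, with 1 array per mouse. TG mice lack both copies of Cyp2f2 and carry a transgene that the genotype labels write as 2F1, SA13 and 2B6. KO mice lack both copies of Cyp2f2 and carry no transgene. The loss of Cyp2f2 was therefore shared, and the transgene was the difference that the genotype labels name. Both lines were adult C57Bl/6 males from Taconic. The labels give no promoter, expressing cell type, founder line or littermate relation, and the mouse arrays were not designed to measure the transgene. Each mouse breathed 120 ppm styrene for 6 hours a day on 5 days a week. The treatment protocol names exposures of 1 or 4 weeks, whereas each mouse's own label gives 26 or 52 weeks, so weeks are used here as labels. Other mice placed the difference: 9 TG and 10 KO mice that breathed air for the same weeks, 10 wild-type (WT) mice that breathed styrene for the same weeks, and TG and KO styrene mice of 78 and 104 weeks.

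Styrene is oxidised in the lung by cytochrome P450 enzymes to styrene oxide and to ring-hydroxylated products. In the mouse the club cells of the bronchioles carry large amounts of CYP2F2, and CYP2F1 is the human enzyme of the same subfamily. CYP2B6 is a human P450 that metabolises many drugs and chemicals. The comparison asks whether lungs of the TG line differ from lungs of the KO line, which also lacks Cyp2f2, when both meet styrene. Any other difference between the lines cannot be told apart from the transgene.

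All values are log2 RMA values, a log2 scale on which a difference of 1 is a doubling, with 1 probe set per gene. All 19 arrays lay on plate 1, and none was from a mouse marked as bearing a tumour. The mice of a group mostly occupied neighbouring wells, so well position and group cannot be told apart. The samples carried the defining transcripts of whole lung: Scgb1a1 of club cells at 13.78 to 13.97, Sftpc of alveolar type 2 cells at 13.65 to 13.90, Ager of alveolar type 1 cells at 13.48 to 13.66, Foxj1 of ciliated cells at 7.13 to 8.33 and Pecam1 of endothelium at 9.77 to 10.36 over the 19 arrays. In bulk lung RNA, fewer cells of a type and less RNA per cell cannot be told apart. Cyp2f2 itself averaged 12.14 ± 0.16 in TG mice (SD, n = 10), 12.33 ± 0.18 in KO mice (n = 9) and 13.28 ± 0.08 in styrene-exposed WT mice (n = 10). It was lower than in WT in both lines, with differences of -1.14 in TG mice (adjusted p = 2.73e-23) and -0.94 in KO mice (adjusted p = 5.06e-17), and was not called between the lines (-0.20, adjusted p = 0.501). It stayed far above the level used to filter dim genes, an array's 30th percentile at about 3, in both Cyp2f2-deficient lines. The labels do not say which part of the gene is deleted, so the probe set may lie outside it and is a weak check of genotype. Along the leading axis of variation within groups over the 19 arrays, which held 26% of that variation, TG arrays spread from -0.48 to 0.58. KO arrays spread from -0.12 to 0.11.

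Of 15695 genes tested, 32 were called at an adjusted p under 0.05 in the mean of both weeks (0.204%), 19 higher in TG mice (0.121%) and 13 lower (0.0828%). Adjusted p-values are from limma with Benjamini-Hochberg adjustment over all genes tested. The median difference over all genes was 0.00 and the median size 0.08 on the log2 scale. Among the 32, 7 differed by at least 2-fold, 7 by 1.5- to 2-fold and 18 by less than 1.5-fold. The genes higher by most were Pttg1, Erdr1, H4c9, Hyi, Wdfy1, Hpcal4 and Cap1, and those lower by most were Tceanc2, Cd59a, Cldn22, Med8 and Efcab7. The count was 49 with C57BL/6 arrays fitted alone, 28 of them among the 32. It was 348 with a covariate for the leading within-group axis of all 150 arrays. That axis is not the axis of the 19 arrays described above. With each mouse left out in turn, between 14 and 34 genes were called. The count fell to 14 without the 26-week KO mouse 3 or 4, to 16 without the 26-week TG mouse 1, to 17 without the 52-week TG mouse 4 or the 52-week KO mouse 3, to 18 and 19 without the 26-week TG mice 5 and 3, to 20 without the 52-week TG mouse 5 and to 21 without the 26-week KO mouse 2. The 11 genes called whichever mouse was left out were Cap1, Hyi, Nsun4, Zfp691, Erdr1, Pttg1, Wdfy1, Tceanc2, Cd59a, Med8 and Cfl2. In 16 of all genes tested (0.102%) TG and KO values did not overlap, in the same direction, in both weeks; 5 of the 32 were among them, namely Cap1, Hyi, Zfp691, Hpcal4 and Tceanc2.

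For 4 of the genes that differed with the smallest adjusted p, RefSeq gives the start of transcription, and the 250 bases before it are printed here to show the loci behind these differences. Hyi, Med8 and Wdfy1 are named only. Coordinates are of build GRCm38.p6, sequences run 5′ to 3′ on the gene's strand, and capitals mark matches on either strand to CCAAT, to the GC box GGGCGG, to the cell cycle element TTTGAA and to TATAAA. Cap1, chr4:122886077-122886326, minus strand; Tceanc2, chr4:107178367-107178616, minus strand; Pttg1, chr11:43425982-43426231, minus strand; Cd59a, chr2:104095551-104095800, plus strand.
Cap1: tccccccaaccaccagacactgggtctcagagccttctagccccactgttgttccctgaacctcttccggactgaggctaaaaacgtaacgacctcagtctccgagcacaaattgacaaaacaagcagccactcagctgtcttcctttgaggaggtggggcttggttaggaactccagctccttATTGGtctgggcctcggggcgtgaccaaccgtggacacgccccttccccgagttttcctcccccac
Tceanc2: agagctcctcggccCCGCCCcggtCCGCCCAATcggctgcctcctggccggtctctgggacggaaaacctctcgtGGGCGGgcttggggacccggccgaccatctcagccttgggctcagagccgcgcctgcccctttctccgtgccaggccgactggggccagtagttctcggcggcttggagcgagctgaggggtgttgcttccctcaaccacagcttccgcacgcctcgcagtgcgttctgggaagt
Pttg1: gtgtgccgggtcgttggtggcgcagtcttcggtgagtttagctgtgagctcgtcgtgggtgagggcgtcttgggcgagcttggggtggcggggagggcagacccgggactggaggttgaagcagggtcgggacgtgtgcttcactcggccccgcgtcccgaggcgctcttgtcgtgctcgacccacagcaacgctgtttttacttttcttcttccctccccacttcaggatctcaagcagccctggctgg
Cd59a: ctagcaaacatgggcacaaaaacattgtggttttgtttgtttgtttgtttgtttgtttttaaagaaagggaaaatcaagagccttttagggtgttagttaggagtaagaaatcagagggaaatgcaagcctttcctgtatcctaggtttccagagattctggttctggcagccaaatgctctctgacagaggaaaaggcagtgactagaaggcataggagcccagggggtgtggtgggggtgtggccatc
Cap1 held 1 CCAAT match, and Tceanc2 held 1 CCAAT match and 3 GC box matches, of which 1 overlaps the CCAAT match. The stretches before Pttg1 and Cd59a held none of the 4 motifs. Of 32851 promoter windows of the same length, 33.8% hold CCAAT, 32.7% the GC box, 16.0% TTTGAA and 12.4% TATAAA. No motif was found in all 4 windows, and a match is a description of letters only.

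Cap1, Hyi, Nsun4 and Zfp691 were higher in TG mice. Cap1 encodes a cyclase-associated protein that recycles actin monomers together with cofilin. Cap1 had log2 values of 10.74, 10.96, 10.52, 10.44 and 10.48 in the 26-week TG mice, against 9.65, 9.80, 9.67 and 9.80 in the 26-week KO mice, and of 10.40, 10.86, 10.52, 11.01 and 10.33 in the 52-week TG mice, against 9.87, 9.71, 9.68, 9.60 and 9.59 in the 52-week KO mice. Every TG value lay above every KO value, a difference of 0.92 ± 0.0927 (SE), or 1.89-fold (adjusted p = 3.89e-13). Styrene-exposed WT mice ranged over 9.61 to 9.81, within the KO range. TG minus WT was 0.90 (adjusted p = 3.40e-14) and KO minus WT -0.01 (adjusted p = 0.956); these comparisons share the TG and KO arrays with the main one, here and below. The other probe set of Cap1 gave a difference of 0.81.

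Hyi encodes a putative hydroxypyruvate isomerase. Hyi had log2 values of 6.32, 5.76, 5.54, 5.78 and 5.55 in the 26-week TG mice, against 4.96, 4.64, 4.72 and 4.68 in the 26-week KO mice, and of 5.66, 6.04, 5.40, 5.95 and 5.61 in the 52-week TG mice, against 4.68, 4.99, 4.36, 4.92 and 4.58 in the 52-week KO mice. The lines did not overlap in either week. Hyi was 2.05-fold higher in TG mice, 1.03 ± 0.16 on the log2 scale (adjusted p = 1.31e-05), with 0.86 for TG minus WT (adjusted p = 0.000121) and -0.17 for KO minus WT (adjusted p = 0.558). Nsun4, a methyltransferase of mitochondrial ribosomal RNA, ranged over 7.95 to 8.79 in TG mice and 7.78 to 8.03 in KO mice. Its lines were apart at 26 weeks and overlapped at 52 weeks, and the difference of 0.42 ± 0.0837 (adjusted p = 0.00327) was not shared by its probe sets, which gave 0.42, 0.17 and -0.38. Under the mean of all its probe sets Nsun4 was no longer called (adjusted p = 0.766). Zfp691, a zinc finger gene, ranged over 4.68 to 5.65 in TG mice and 4.36 to 4.65 in KO mice with no overlap in either week, a difference of 0.58 ± 0.107 (adjusted p = 0.000685).

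Tceanc2, Cd59a and Med8 were lower in TG mice. Tceanc2 carries the amino-terminal domain of the transcription elongation factor TFIIS. Tceanc2 had log2 values of 2.51, 3.03, 4.70, 4.51 and 5.06 in the 26-week TG mice, against 5.21, 5.11, 5.45 and 5.41 in the 26-week KO mice, and of 4.35, 2.81, 4.43, 3.16 and 4.92 in the 52-week TG mice, against 5.49, 5.27, 5.26, 5.45 and 5.27 in the 52-week KO mice. TG mice spread over more than 2 log2 units, from below the filter level of about 3 to just under the KO range, while KO mice lay at 5.11 to 5.49 and WT mice at 5.18 to 5.65. The difference was -1.37 ± 0.222, or 2.58-fold lower (adjusted p = 3.47e-05). Against WT it was -1.41 in TG mice (adjusted p = 1.15e-06) and -0.04 in KO mice (adjusted p = 0.942).

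Cd59a encodes a membrane-anchored inhibitor that blocks the last step of complement attack on host cells. Cd59a had log2 values of 6.95, 7.86, 6.99, 6.80 and 6.14 in the 26-week TG mice, against 8.35, 8.17, 8.18 and 6.84 in the 26-week KO mice, and of 6.85, 6.55, 6.61, 6.82 and 6.60 in the 52-week TG mice, against 7.78, 8.18, 8.16, 8.07 and 8.25 in the 52-week KO mice. The lines were apart at 52 weeks, and at 26 weeks they overlapped through a high TG mouse at 7.86 and a low KO mouse at 6.84. Cd59a was 2.25-fold lower in TG mice (-1.17 ± 0.143, adjusted p = 2.26e-09), and its other probe set gave -1.07. WT mice ranged over 8.10 to 8.48; TG minus WT was -1.48 (adjusted p = 1.13e-15) and KO minus WT -0.31 (adjusted p = 0.187). Med8, a subunit of the Mediator complex that links regulators to RNA polymerase II, was dim: it ranged over 2.95 to 4.06 in TG mice, 4 of 10 of them under the filter level, and 3.91 to 4.47 in KO mice. The difference was -0.73 ± 0.126 (adjusted p = 0.000133), with the lines overlapping at 26 weeks and apart at 52 weeks.

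**Figure D1:**
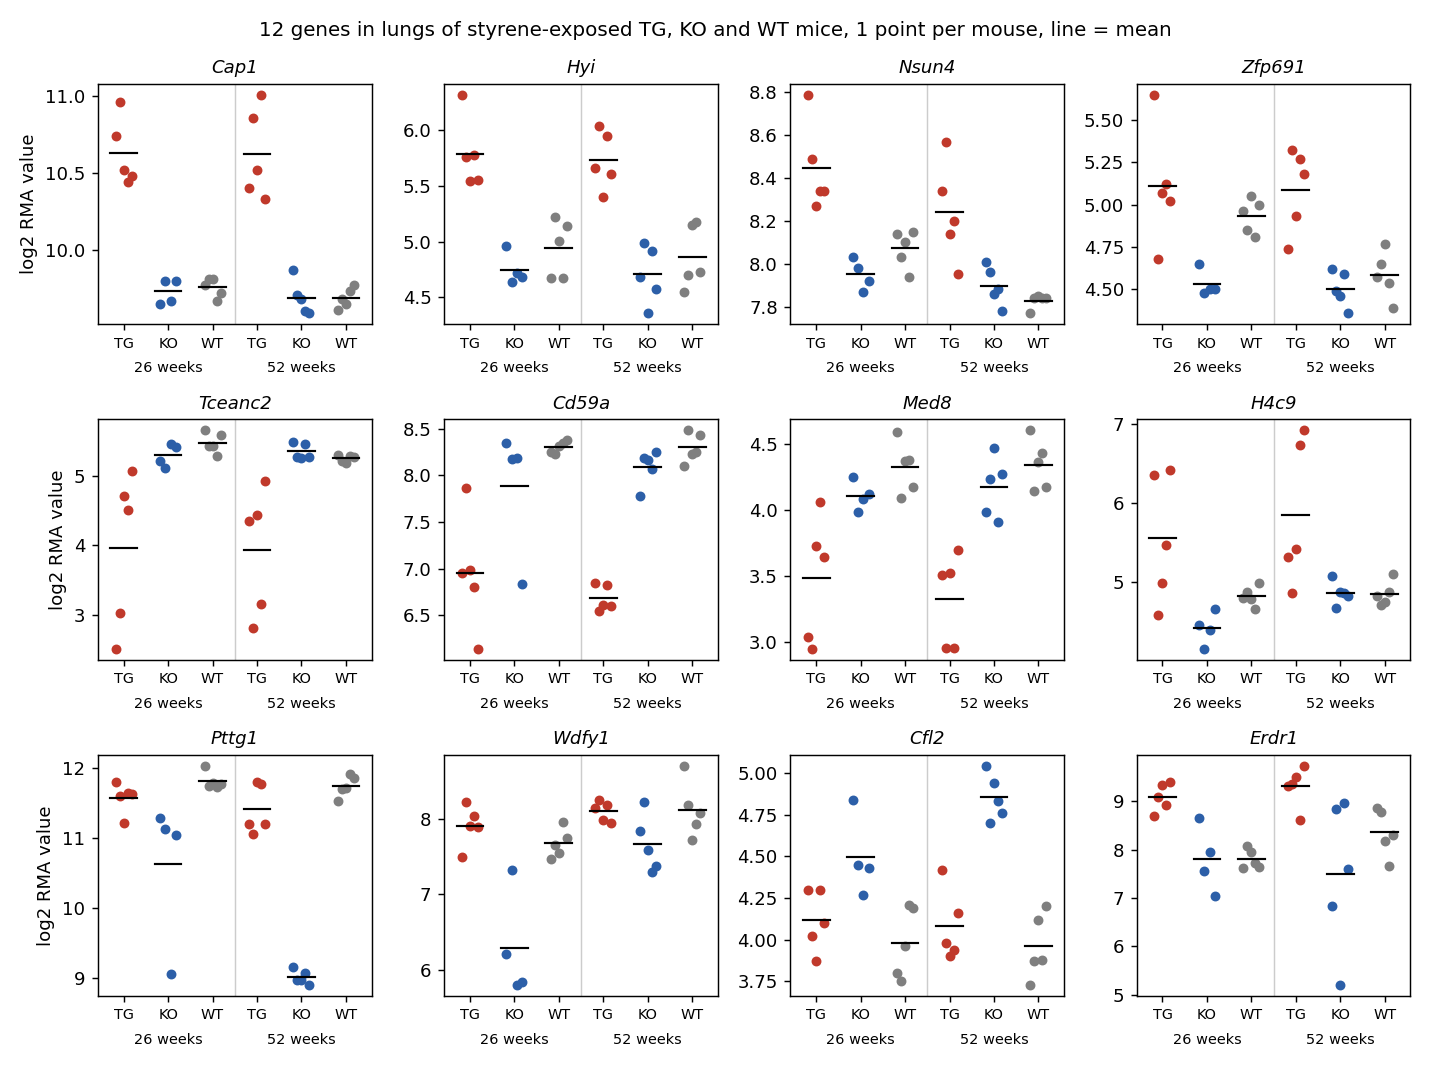
Log2 RMA values of 12 genes in every styrene-exposed TG (red), KO (blue) and WT (grey) mouse at 26 and at 52 weeks, with a line at each group mean. Cap1 lies at 10.33 to 11.01 in TG mice, above KO mice at 9.59 to 9.87, and Pttg1 in KO mice takes either a value near 9 or one near 11.

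Pttg1, Wdfy1 and Cfl2 differed between the lines while the TG mice lay near the WT level. Pttg1 encodes securin, which holds separase inactive until sister chromatids part. Pttg1 had log2 values of 11.80, 11.59, 11.21, 11.64 and 11.63 in the 26-week TG mice, against 11.29, 11.13, 9.06 and 11.04 in the 26-week KO mice, and of 11.20, 11.06, 11.79, 11.77 and 11.20 in the 52-week TG mice, against 9.16, 8.97, 8.97, 9.07 and 8.91 in the 52-week KO mice. All 10 TG mice lay at 11.06 to 11.80, whereas 3 KO mice lay at 11.04 to 11.29 and the other 6 at 8.91 to 9.16, so the KO mean describes no single level. The 3 high KO mice were all of 26 weeks. The difference was 1.67 ± 0.277, or 3.18-fold (adjusted p = 5.66e-05). It was 0.95 at 26 weeks, where it was not called (adjusted p = 0.753), and 2.39 at 52 weeks, where it was called. WT mice lay at 11.52 to 12.02; TG minus WT was -0.28 (adjusted p = 0.83) and KO minus WT -1.95 (adjusted p = 1.83e-07). Its 3 probe sets gave 0.80, 1.22 and 1.67. Of 39 KO mice over every week and both exposures, 9 lay at 11.04 to 11.37 and 30 at 8.36 to 9.36, and of 38 TG mice 37 lay at 11.01 to 12.00 and 1 at 8.75, with no mouse between 9.36 and 11.01.

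Wdfy1 encodes a protein that binds early endosomes. Wdfy1 had log2 values of 7.49, 8.22, 7.91, 8.04 and 7.89 in the 26-week TG mice, against 6.21, 7.32, 5.80 and 5.83 in the 26-week KO mice, and of 8.15, 8.25, 7.98, 8.19 and 7.94 in the 52-week TG mice, against 7.84, 8.23, 7.59, 7.29 and 7.37 in the 52-week KO mice. The lines were apart at 26 weeks and overlapped at 52 weeks, where the highest KO mouse reached 8.23. The difference was 1.03 ± 0.197 (adjusted p = 0.00121), and all 4 probe sets gave the same direction, from 0.56 to 1.17. TG minus WT was 0.11 (adjusted p = 0.923) and KO minus WT -0.92 (adjusted p = 0.00294). Cfl2, a cofilin that severs actin filaments, was lower in TG mice, at 3.87 to 4.42 against 4.27 to 5.04 in KO mice, with overlap at 26 weeks only (-0.58 ± 0.122, adjusted p = 0.00765). It was 0.13 for TG minus WT (adjusted p = 0.825) and 0.71 for KO minus WT (adjusted p = 4.68e-05). Shc1, an adaptor of receptor tyrosine kinases, and Haus4, a subunit of the augmin complex of the spindle, gave like values. They were 0.37 and 0.51 for TG minus KO (adjusted p = 0.0422 and 0.0491), -0.07 and -0.21 for TG minus WT, and -0.45 and -0.73 for KO minus WT. Their calls were lost without 12 and 17 of the 19 mice in turn, whereas those of Pttg1, Wdfy1 and Cfl2 never were.

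**Figure D2:**
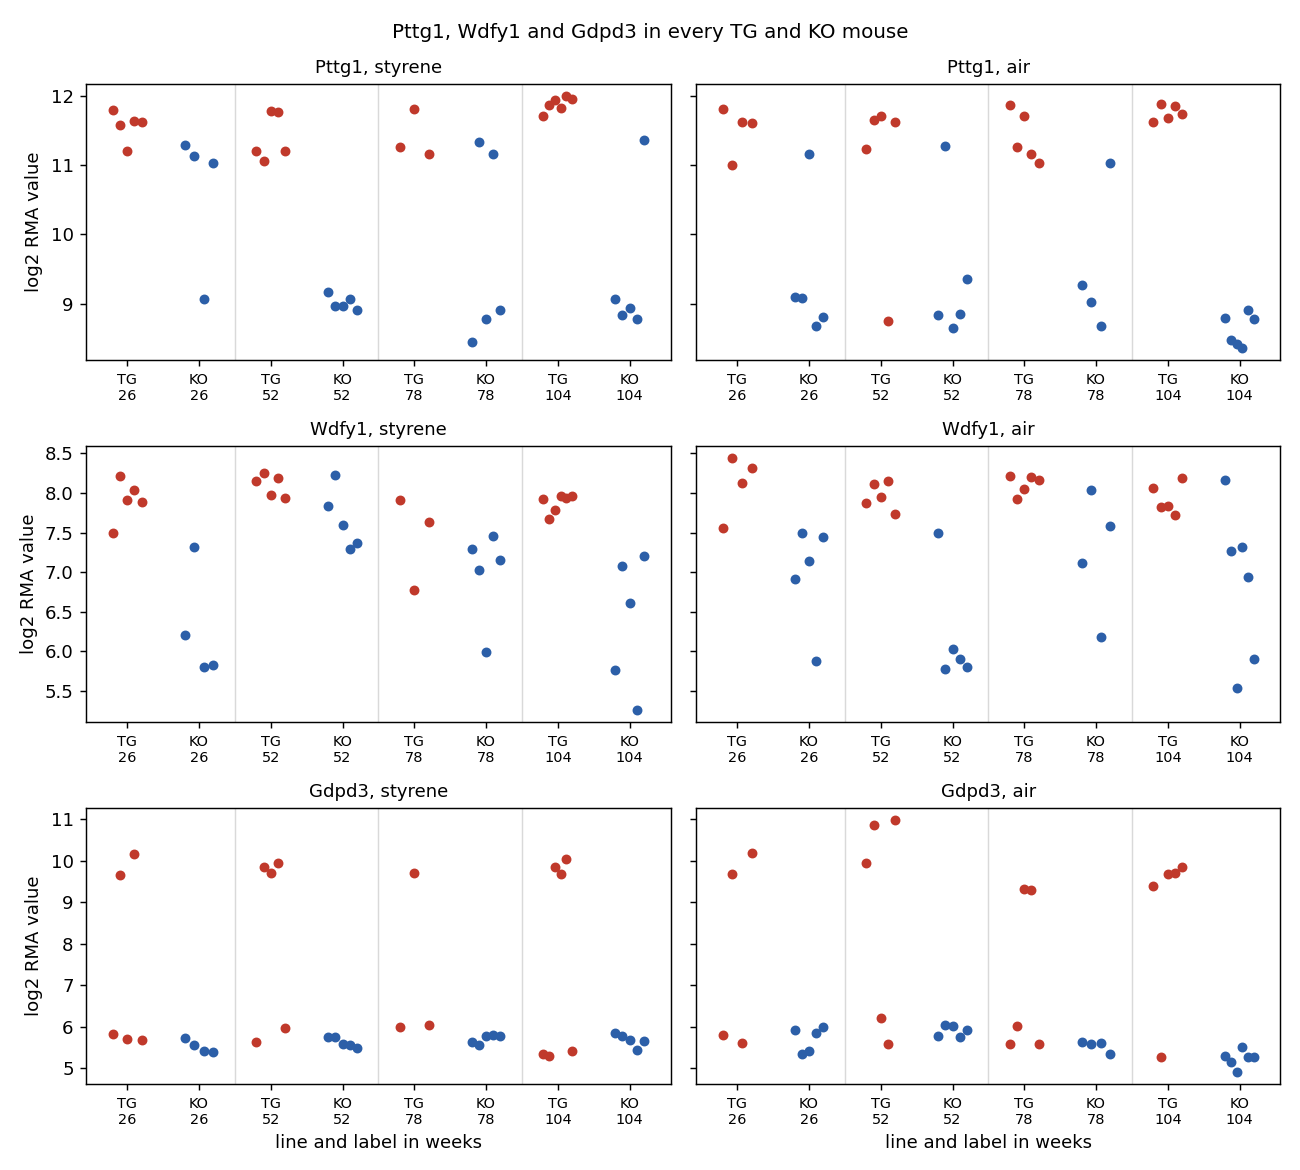
Log2 RMA values of Pttg1, Wdfy1 and Gdpd3 in every TG (red) and KO (blue) mouse by label in weeks, styrene on the left and air on the right. Pttg1 falls at 8.36 to 9.36 or at 11.01 to 12.00 in all of these mice, and Gdpd3 reaches 9.29 or more in TG mice only.

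Erdr1 and H4c9 were higher in TG mice, with a wide spread in KO mice for Erdr1 and in TG mice for H4c9. Erdr1, an erythroid differentiation regulator with several copies near the end of the sex chromosomes, ranged over 8.62 to 9.72 in TG mice and 5.21 to 8.97 in KO mice, a difference of 1.55 ± 0.29 (adjusted p = 0.000797). The KO mouse at 5.21 lay far below the rest, and without it the difference was called too. Its probe set name carries the x suffix that marks possible cross-hybridisation, so the copies cannot be told apart. H4c9 encodes histone H4, whose many near-identical copies make its value uncertain. H4c9 had log2 values of 6.35, 4.58, 4.98, 5.47 and 6.42 in the 26-week TG mice, against 4.45, 4.15, 4.39 and 4.65 in the 26-week KO mice, and of 5.32, 4.86, 5.42, 6.73 and 6.92 in the 52-week TG mice, against 5.07, 4.67, 4.87, 4.86 and 4.82 in the 52-week KO mice. The 4 TG mice at 6.35 to 6.92 stood far above all KO mice, and in each week the lowest TG mouse, at 4.58 and 4.86, lay within the KO range. The difference was 1.07 ± 0.235 (adjusted p = 0.0133); the call was lost without any 1 of 4 TG mice (26-week mice 1 and 5, 52-week mice 4 and 5), with an adjusted p of up to 0.0819. H4c9 also had the lowest loading of all genes on the within-group axis along which the TG arrays spread.

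The other 18 genes, 9 higher and 9 lower in TG mice, differed by 0.27 to 0.99 on the log2 scale in size. Among those higher, Hpcal4, a neuronal calcium sensor of the hippocalcin family, was 1.98-fold higher (5.55 to 6.60 in TG mice against 4.54 to 5.71 in KO mice, adjusted p = 0.0429). Fadd, the adaptor of death receptors, was 0.47 higher (adjusted p = 0.0464), Zfpm1, a cofactor of GATA factors, 0.48 (adjusted p = 0.0337), Slc25a37, the mitochondrial iron carrier mitoferrin 1, 0.44 (adjusted p = 0.0464), and Adarb1, an RNA-editing deaminase, 0.43 (adjusted p = 0.0464). Gnai2, an inhibitory G protein subunit, differed by least (0.27, adjusted p = 0.0337). Among those lower, Cldn22, a tight junction claudin, ranged over 3.39 to 4.86 in TG mice and 3.85 to 6.27 in KO mice; 2 KO mice of 26 weeks at 6.20 and 6.27 stood above all others, and without either the call was lost (adjusted p up to 0.0774). Atp10b, a lipid flippase, lost its call without the KO mouse at 5.03 (adjusted p = 0.226 without it). Sorl1, a sorting receptor for trafficking between Golgi and endosomes, differed by -0.48 (adjusted p = 0.0125), and Efcab7, a ciliary protein of Hedgehog signalling, by -0.71 (adjusted p = 0.0143). Camk2b, a subunit of calmodulin-dependent kinase II, was -0.48 (adjusted p = 0.0422), with -0.86 for TG minus WT and -0.38 for KO minus WT. Ccdc81 and D4Ertd617e had a TG mean under the filter level, so they were at least 1.35-fold and at least 1.11-fold lower in TG mice. Of the 32 genes, 21 lost their call without at least 1 mouse. Leaving out each of 19 mice in turn lost the Adarb1 call 17 times and the Fadd call 15 times. It lost those of Hpcal4, Slc25a37 and Camk2b 13 times each, Zfpm1 10, Gnai2 9, Efcab7 3 and Sorl1 2 times. Other probe sets gave 0.01 and 0.53 for Slc25a37, 0.14 for Fadd, 0.09 and 0.27 for Adarb1 and 0.25 for Zfpm1. They gave 0.29 for Gnai2 and -0.29 and -0.24 for Sorl1.

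Weeks were then compared. At 26 weeks 6 genes were called (0.0382%) and at 52 weeks 10 (0.0637%), and 3 of the 32 genes were called in both weeks, namely Cap1, Cd59a and Hyi. All 32 genes had the same sign in both weeks, which the averaging favours. No gene was called in the test of the 52-week minus the 26-week difference (0.0%, limma; 679 genes had an unadjusted p under 0.05, of 15695), so a difference between the weeks was not shown for any gene. Sorl1 was -0.79 at 26 weeks and -0.17 at 52 weeks, and Wdfy1 1.62 and 0.44, without that test being passed. Leaving out 1 mouse gave 3 to 14 calls at 26 weeks and 4 to 14 at 52 weeks; the 26-week count was 14 without KO mouse 1 and 3 without KO mouse 4, and the 52-week count 4 without KO mouse 3 and 6 without KO mouse 1 or 4.

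Chromosome 4 carried 11 of the 32 genes, 1.14% of its 962 tested genes, against 21 of 14733 genes elsewhere (0.143%). In the order of tested genes, 10 of the 11 lay within 183 neighbours, from Efcab7 to Hpcal4, with 5 higher in TG mice (Nsun4, Hyi, Zfp691, Cap1 and Hpcal4) and 5 lower (Efcab7, Tceanc2, Med8, D4Ertd617e and Trit1). Hyi and Med8 are next to each other among tested genes and moved in opposite directions, 1.03 and -0.73. Trit1 and Hpcal4, 2 of the other called genes of the stretch, differed by -0.35 and 0.99. The remaining 173 genes of the stretch were not called. Over all 183 genes, called ones included, the median difference was 0.00 and the median size 0.1, beside a median size of 0.08 for all genes tested. Of the 183, 34 (18.6%) had an unadjusted p under 0.05 (limma), beside 8.42% of all genes tested. The ends of the stretch were set by called genes. On chromosome 11, Atp10b lies directly before Pttg1 among tested genes with a difference of -0.63 beside 1.67 for Pttg1. The gene after Pttg1, Slu7, differed by -0.26 (adjusted p = 0.671).

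**Figure D3:**
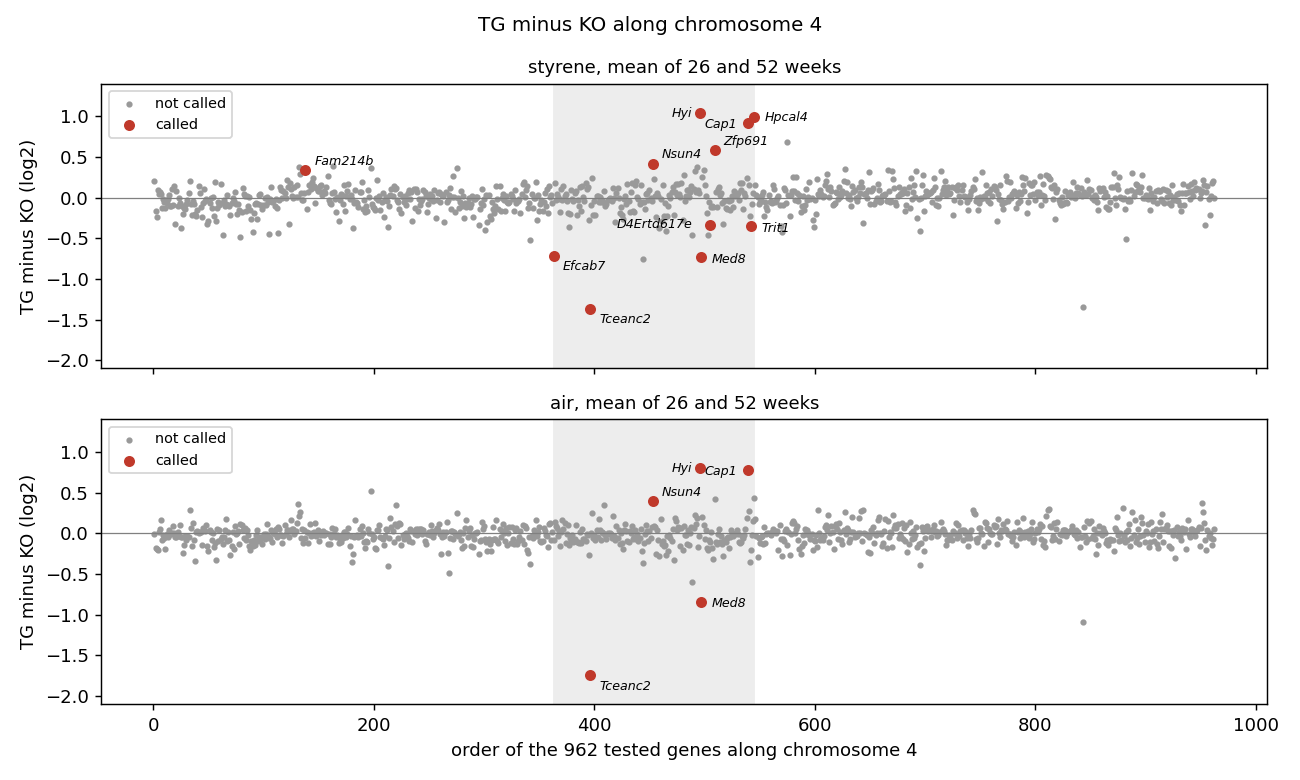
TG minus KO on the log2 scale for the 962 tested genes of chromosome 4 in their order, styrene above and air below, with called genes in red and the stretch from Efcab7 to Hpcal4 shaded. Of the 11 genes called in styrene, 10 lie in the shaded stretch of 183 genes, and all 5 genes called in air lie there too.

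The same line difference was then taken in other mice that had breathed air. There 14 genes were called (0.0892%), 10 of them among the 32 (31.2% of the 32 and 71.4% of the 14), each in the same direction. The 10 shared genes were Pttg1, Wdfy1, Hyi, Cap1, Nsun4 and Shc1, higher in TG mice, and Tceanc2, Med8, Cd59a and Cfl2, lower. The air count was 9 without the 26-week KO air mouse 1. With each of the 19 air mice left out in turn, the Cfl2 air call was lost 14 times. The air call was lost 9 times for Shc1, 1 time for Nsun4 and never for the other shared genes. In air Cap1 was 0.78 ± 0.0927 (adjusted p = 1.54e-09), Pttg1 1.88 ± 0.277 (adjusted p = 1.61e-06), Tceanc2 -1.74 ± 0.222 (adjusted p = 1.32e-08) and Cd59a -0.80 ± 0.143 (adjusted p = 0.000399). The direction was the same in air for 30 of the 32 genes; Fam214b (-0.05 in air) and Gnai2 (-0.01) were the exceptions. Sizes in styrene and air were like each other for Nsun4 and Shc1, and the styrene value was the larger for H4c9 (1.07 against 0.61 in air) and Cldn22 (-0.99 against -0.34 in air). The air value was the larger for Wdfy1 (1.03 in styrene against 1.45 in air), and 4 genes were called in air but not in styrene: Sec14l4 (0.35 in styrene against 1.44 in air), 5830417I10Rik (0.91 against 1.36), Dap3 (0.23 against 0.37) and Cd1d2 (-0.22 against -0.60). A difference between styrene and air was not shown for any gene in the test of the difference itself (0 of 15695, 0.0%; 382 had an unadjusted p under 0.05).

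**Figure D4:**
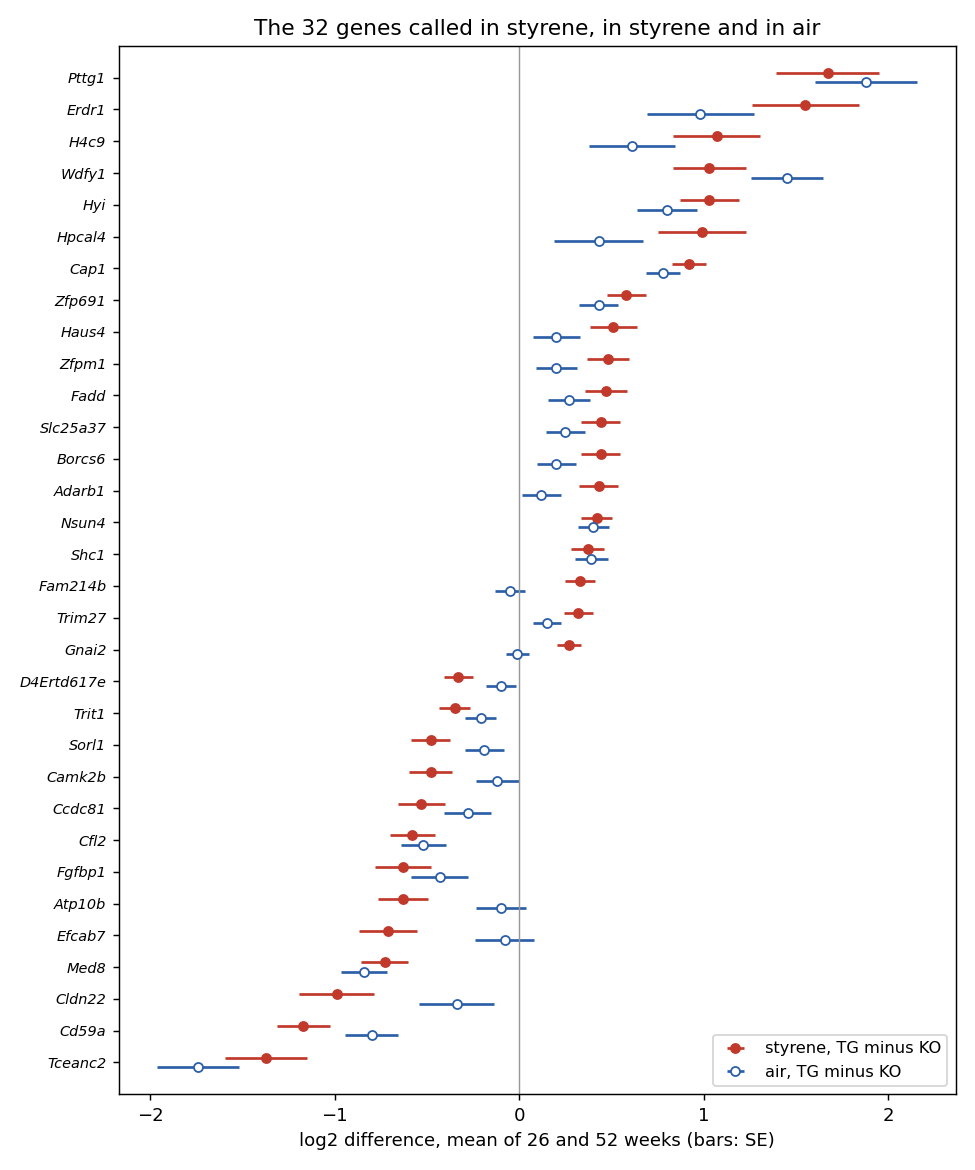
TG minus KO of the 32 genes called in styrene, in styrene (red) and in air (blue, open), as the mean of 26 and 52 weeks with SE bars. Signs are the same for 30 genes, and Fam214b and Gnai2 lie near 0 in air.

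At 78 weeks, with 3 TG and 5 KO mice on plate 2, 5090 genes were called (32.4%), and at 104 weeks, with 6 TG and 5 KO mice, 6492 (41.4%), so a call there says little about a single gene. The labels leave plate 3 or 4 open for the 104-week arrays, which had no plate term, so a plate effect there cannot be told apart from the lines. The 78-week count fell to 1 gene without TG mouse 2 and to 3131 without KO mouse 4. Of the 32 genes 30 kept their direction at 78 weeks (16 called) and 20 at 104 weeks (16 called, 6 of them in the opposite direction). Cap1 was 0.84 at 78 weeks and 0.70 at 104 weeks, Cd59a -1.15 and -0.89, Tceanc2 -0.92 and -2.42, and Pttg1 1.69 and 2.49. Efcab7, Borcs6 and Shc1 were among those that turned, at 0.69, -0.73 and -0.30 at 104 weeks. Against WT mice in styrene at 26 and 52 weeks, 75 genes were called in TG mice (0.478%) and 263 in KO mice (1.68%). The KO count fell to between 93 and 173 without any 1 of 10 mice, namely the 26-week KO mice 2, 3 and 4, the 52-week KO mice 3, 4 and 5, the 26-week WT mice 2 and 3 and the 52-week WT mice 3 and 4.

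Enzymes that handle styrene did not pass the test. Of 19 P450 pathway genes tested, none was called in the mean of both weeks; the smallest unadjusted p was for Cyp3a13 (-0.54, adjusted p = 0.374), and Cyp2e1 and Cyp1a1 were -0.05 and -0.44. None of 30 other styrene-metabolising and phase II genes, 21 targets of the antioxidant regulator Nrf2, 17 p53 and DNA damage genes, 13 heat shock genes or 23 cytokine and acute phase genes was called. The medians of these lists were -0.07, -0.12, -0.01, 0.04, -0.25 and -0.02, beside 0.00 for all genes. Adh7, an alcohol dehydrogenase of airway and gut lining, was -0.65 (adjusted p = 0.241), and Hsp90aa1, a chaperone, -0.86 (adjusted p = 0.398). Over 36 pathway and marker lists, 6 of 534 tested genes were called (1.12%, beside 0.204% of all genes); some lists were built around genes already known to differ, so this share is no independent evidence. The 4 lists that held a called gene were these: Pttg1 among 22 securin partner and chromatid separation genes, Cd59a among 16 complement genes, Tceanc2 and Med8 among 25 Mediator and elongation genes, and Cap1 and Cfl2 among 18 actin regulators. Partners of securin such as Espl1, the separase gene (0.07), and Cdc20, the activator of the anaphase-promoting complex (0.34), were not called, nor was Fzr1 (0.17). Collagen and matrix genes had a median of 0.21 with none of 20 called; Col1a1, a chain of type I collagen, came nearest (0.46, adjusted p = 0.0616). Lists picked from these data were left out of the 36. One of them holds 14 styrene responders that depend on CYP2F2, of which 1 was called, lower in TG mice. Its median was -0.11, and its make-up from these data leaves it no independent evidence.

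Markers of cell types did not pass the test either: 0 of 174 tested genes of 16 lists (limma; 25, or 14.4%, had an unadjusted p under 0.05, beside 8.42% of all genes). Their medians were not all near 0: -0.32 for 15 ciliated cell genes, -0.20 for 15 club cell genes, -0.33 for 11 heart muscle genes, -0.34 for 8 fat genes and 0.38 for 10 neutrophil genes. In air the medians of TG minus KO were -0.09, -0.13, -0.10, -0.12 and -0.34 for the same lists, so the neutrophil median had the opposite sign there, with 10 of 10 genes below 0. The mean level of the ciliated cell list ran from 7.94 to 8.32 in TG mice and from 8.09 to 8.77 in KO mice, and that of the club cell list from 10.62 to 11.23 in TG mice and 10.83 to 11.58 in KO mice. The heart muscle list ran from 4.66 to 6.84 in TG mice and 5.81 to 6.66 in KO mice, with Nppa at 2.97 to 8.16 and Myl7 at 6.54 to 10.57 over the 19 mice. The part of these markers in the 32 calls was not tested.

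**Figure D5:**
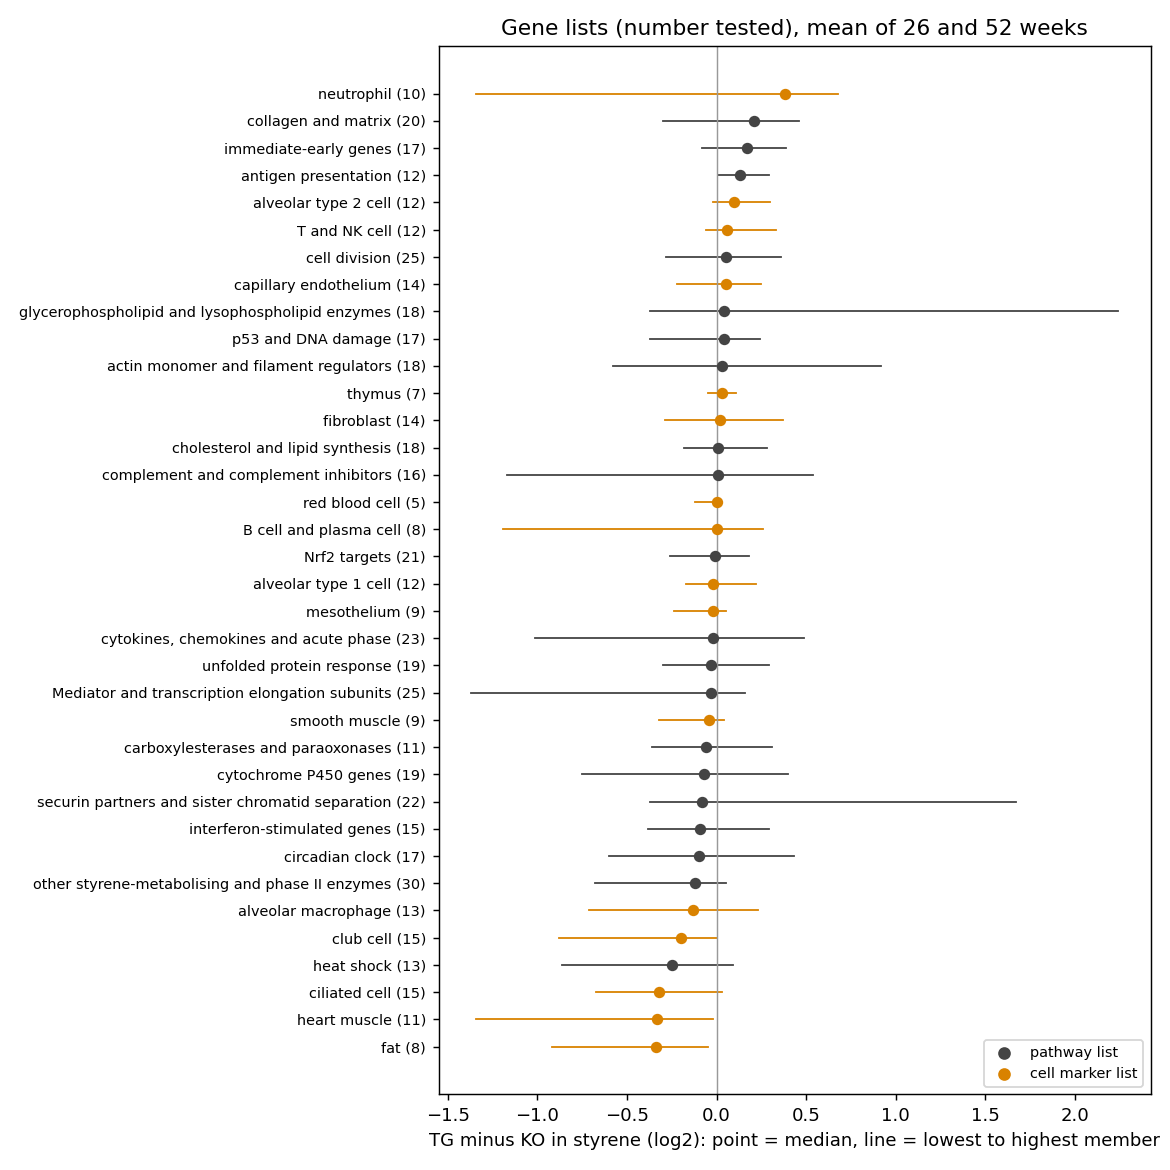
TG minus KO in styrene, mean of 26 and 52 weeks on the log2 scale, for 36 gene lists, with the median as a point and the lowest to highest member as a line; black lists are pathways and orange lists cell markers. Medians lie between -0.34 for fat and 0.38 for neutrophil markers, and the neutrophil line runs from -1.34 to 0.68.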

How the data were processed

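The deposited values are log2 RMA values per probe set from Affymetrix HT MG-430 PM arrays, made by the authors with RMA and Partek per the submitters' processing notes (versions not given in the sources used here). Of 45037 probe sets, 28898 name 1 gene in the platform annotation, 551 several and 15588 none; symbols were updated through Entrez for 28689. The probe set with the highest mean stood for each of 17097 genes, and 15695 genes above their array's 30th percentile in 3 or more arrays were tested. One model of 31 group means with a term for plate 2 was fitted to all 150 arrays (limma 3.58.1, R 4.3.3; adjusted p under 0.05). Plates were read from the wells in the labels. A gene whose mean on 1 side was under the filter level is given as "at least". Named genes are the 15 highest and 15 lowest calls, calls shared with air, the 4 smallest p of each list, the P450 and securin lists and the next tested genes; Fam214b, Gnai2 and the 4 genes called in air alone fall outside this rule and were named after their values were seen. Comparisons, members and lists were chosen with earlier results of these data known. The code was checked on simulated data. The labels call the samples biological replicates, and the number of arrays limits precision. The design states 154 mice, of which 150 were analysed here.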

Additional observations from a re-analysis of the deposited data

Results flagged for a closer look

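Values were looked at for a mouse far from the rest of its group in 128 gene-by-group sets (32 genes, 4 groups), of which chance flags about 1 in 20; 4 were flagged (3.12%). Cd59a in the 26-week KO mouse 4 was 6.84, against 8.17 to 8.35 in the other 3, so this mouse lay in the TG range. Pttg1 in the 26-week KO mouse 3 was 9.06, against 11.04 to 11.29 in the other 3. Its value lay at the more common KO level, 8.36 to 9.36 in 30 of 39 KO mice over every week and both exposures. Fam214b in the 26-week TG mouse 2 was 6.08, against 6.47 to 6.62 in the other 4. Zfp691 in the 26-week KO mouse 1 was 4.65, against 4.48 to 4.50 in the other 3. Cd59a and Pttg1 stayed called whichever mouse was left out.

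Probe sets that the platform annotation lists with no gene were fitted apart in the same model, an alternative added after the data were seen. Of 12607 that passed the filter, 21 were called between TG and KO mice in styrene (0.167%), 14 higher and 7 lower in TG mice. The same direction was found in air for 20 of them, and 9 were also called there.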

How the results depend on the processing

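Of 32 genes, 9 kept their call under every alternative run and without any mouse where they could be tested, and no gene's direction reversed. The averaged count was 49 with C57BL/6 arrays alone, 28 of them among the 32 genes. With the replicate block fitted on those arrays it was 21, with 15 among the 32. A covariate for the leading within-group axis of all 150 arrays gave 348, all 32 genes included. Leaving out the 2 arrays farthest along the separate axis of the 19 styrene arrays gave 19, all among the 32. The stricter filter gave 24, all among the 32. TG and KO arrays alone gave 38, with 17 among the 32. The mean of all probe sets gave 22, with 19 among the 32. The covariate gave 319 at 26 weeks, 29 at 52 weeks, 400 for TG minus WT and 2802 for KO minus WT. C57BL/6 arrays alone gave 11, 4, 148 and 620 in the same order. TG and KO arrays alone gave 13 at 26 weeks and 3 at 52 weeks, the 2 arrays left out gave 3 at 26 weeks, and the stricter filter 6 at 52 weeks. The replicate block on C57BL/6 arrays alone gave 4 at 52 weeks and 123 for TG minus WT, beside 4 and 148 on the same arrays without it. Leaving out 1 mouse gave 14 to 34 averaged, 3 to 14 at 26 weeks, 4 to 14 at 52 weeks, 9 to 17 in air, 1 to 6715 at 78 weeks, 4815 to 7528 at 104 weeks, 59 to 98 for TG minus WT and 93 to 335 for KO minus WT. The cause was not tested. The numbers did not pair the mice: the deviations of same-numbered TG and KO mice correlated at -0.153 to 0.28 at 26 weeks and 0.039 to 0.092 at 52 weeks. Dim genes such as Med8 (4.14 in KO mice, filter level about 3.05) have little room to fall.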

Other observations

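Gdpd3, a phosphodiesterase of lysophospholipids, had the largest difference of any listed gene and was not called (2.24 ± 0.68, 4.72-fold on the mean, adjusted p = 0.253). Of 10 styrene-exposed TG mice, 5 lay at 9.66 to 10.16 and 5 at 5.64 to 5.96, whereas all 9 KO mice lay at 5.39 to 5.76 and all 10 WT mice at 5.52 to 6.05. Over every week and both exposures, 20 of 38 TG mice lay at 9.29 to 10.98 and 18 at 5.27 to 6.20, and all 39 KO mice lay at 4.91 to 6.04. Gdpd3 was at the highest loading of all genes on the within-group axis of the 19 styrene arrays.

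Among the probe sets with no listed gene, 1452426_PM_x_at averaged 6.17 in TG mice and 8.00 in KO mice (-1.83, adjusted p = 0.00258), and 1431067_PM_at 3.71 and 5.00 (-1.29, adjusted p = 1.01e-10). In the other direction 1427820_PM_at averaged 8.07 in TG mice and 6.26 in KO mice (1.81, adjusted p = 0.0376), and 1458659_PM_at 7.49 and 5.71 (1.78, adjusted p = 9.63e-08).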
